A study of Homo sapiens with 18 samples.

Results

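A set of 10 genes that are commonly read as signs of an epithelial to mesenchymal transition (EMT) were followed in pancreatic cancer cells: the transcription factors SNAI1, SNAI2, ZEB1, ZEB2 and TWIST1, and the mesenchymal markers VIM, CDH2, ACTA2, TAGLN and LOX. The members were chosen by name, 10 of the 26485 genes in the deposited table, but with earlier results of these data known. Polyadenylated RNA had been sequenced in the parental cell line L3.6pl (Par), from a human pancreatic carcinoma, and in GemR, a gemcitabine-resistant derivative of it that was maintained in 64 nM gemcitabine. Both lines were transfected with siRNA for 48 h. Par received the control siRNA siCont, while GemR received siCont or siSTIM1, which targets the calcium sensor STIM1, so an effect of siSTIM1 in Par was not measured here. Treatment with DMSO, the vehicle, or with 500 nM thapsigargin filled the final 3 h. Thapsigargin blocks SERCA, the pump that fills the endoplasmic reticulum with calcium, so that this store runs empty. The 6 groups, Par siCont, GemR siCont and GemR siSTIM1 with vehicle or thapsigargin, held 3 libraries each. GemR is 1 derivative, and only its medium is described as holding gemcitabine, so resistance, drug exposure and other differences between the lines cannot be told apart. The labels number the replicates without saying whether they were separate cultures, so the p-values measure the spread between these libraries, which may be technical.

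In EMT, epithelial cells lose their junctions and gain a motile, mesenchymal form. The SNAI and ZEB zinc finger proteins and the bHLH factor TWIST1 are known to drive it, and the zinc finger proteins do so by binding E-boxes in genes such as CDH1, which encodes E-cadherin, and silencing them. Transforming growth factor beta is a classical inducer. VIM encodes vimentin, the intermediate filament protein of mesenchymal cells, and CDH2 encodes N-cadherin. ACTA2 (smooth muscle alpha actin) and TAGLN (transgelin) are contractile genes controlled by serum response factor (SRF), and LOX encodes lysyl oxidase, which crosslinks collagen outside the cell.

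Promoter windows from RefSeq (GRCh38.p14), 250 bases before to 50 after a start site, were at hand for 5 members with 14 windows that could be searched: ZEB1, ZEB2, VIM, ACTA2 and LOX. Of these, 2 windows are shown because they hold matches to the sites of the 2 kinds of factor named above, the E-box repressors and SRF. The first is the ZEB1 window at chr10:31318966-31319265 on the plus strand, with the E-box CAGGTG or its reverse complement CACCTG in capitals.

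ZEB1: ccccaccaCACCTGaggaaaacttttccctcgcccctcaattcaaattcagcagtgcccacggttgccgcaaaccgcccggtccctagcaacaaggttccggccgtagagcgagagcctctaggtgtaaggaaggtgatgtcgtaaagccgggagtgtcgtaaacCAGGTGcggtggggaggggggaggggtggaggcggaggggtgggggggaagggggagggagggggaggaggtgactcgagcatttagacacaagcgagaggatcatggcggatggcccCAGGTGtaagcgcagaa

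Its 3 E-boxes start at positions -242, -85 and 34 from the start site. Of the 14 windows 4 held at least 1 such E-box, while 20.6% of all 35116 windows of this length did, and 0.635% held 3 or more. Of these 4 windows, 2 are overlapping LOX windows with the same E-box. The second is the ACTA2 window at chr10:88952724-88953023 on the minus strand, with matches to the CArG box, the site of SRF, in capitals. A match here was allowed 1 base other than A or T in the 6-base core.

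ACTA2: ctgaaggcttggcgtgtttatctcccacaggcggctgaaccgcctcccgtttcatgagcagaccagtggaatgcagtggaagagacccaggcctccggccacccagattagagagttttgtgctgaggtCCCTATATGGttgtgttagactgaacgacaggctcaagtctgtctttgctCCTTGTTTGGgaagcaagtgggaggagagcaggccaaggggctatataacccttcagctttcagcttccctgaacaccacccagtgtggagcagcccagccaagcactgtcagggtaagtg

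These 2 CArG-like elements start at positions -121 and -71. At least 1 was present in 8.13% of all windows and at least 2 in 0.686%, and none was found in the other 13 windows of the members. The matches are a description of the letters and no measurement of binding.

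The deposited value of a gene is its read count divided by a size factor of the library, here called the normalized count. These are bulk measurements, so a change in the share of cells with a transcript and a change per cell cannot be told apart. Reads per library ranged from 8922439 to 16519239. Differences are given as log2 fold changes of normalized count + 1, which understate the change of low genes. A normalized count is given with its standard deviation (n = 3) after ±, and a log2 fold change with its standard error. Unless another fit or source is named, an adjusted p is from limma, fitted on all 18 libraries and 13096 genes with a mean of at least 10. Calls were made below an adjusted p of 0.05. STIM1, the siRNA target, was lower with siSTIM1 in vehicle (log2 fold change -3.93 ± 0.10, adjusted p = 7.2e-16) and in thapsigargin (-4.32 ± 0.10, adjusted p = 1.2e-16), and higher in GemR siCont than in Par by 3.68 ± 0.10 (adjusted p = 5.1e-16). All 7 pancreatic epithelial markers (such as KRT8, KRT18 and EPCAM) were present, with a summed normalized count of 77329 to 109358 per library. The 7 fibroblast markers each had a mean under 10, DCN and FAP were at 0 in all libraries, and their sum was 8.63 to 19.3 in the Par libraries and 0.988 to 7.05 in the GemR libraries. Of the immune markers, PTPRC, CD3E and CD14 had means under 10, as had VWF and KDR among the endothelial ones. The remaining immune marker, CD68, and the remaining endothelial ones, PECAM1 and CDH5, had means of at least 10. The immune markers summed to 73.2 to 177 per library and the endothelial ones to 114 to 282. Deviations from the group mean fell with exon length (Spearman's rho -0.505 and -0.428 across 12419 genes, which are not independent) most in replicate 1 of GemR siCont with vehicle and replicate 1 of GemR siSTIM1 with thapsigargin. They rose most in GemR siCont vehicle replicate 3 (0.459) and replicate 2 (0.346), so the trend was present in both directions. The part of this trend in the results below was not tested beyond leaving both libraries out, and those values are given where they differ in a call.

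In each of the 7 comparisons between groups, the called members went both ways. Thapsigargin changed 3 of the 9 tested members in Par (2 higher, 1 lower), where 40.1% of all tested genes were called. It changed 5 of 9 in GemR siCont (3 higher, 2 lower, against 33.6% of all genes) and 3 of 9 in GemR siSTIM1 (2 higher, 1 lower, against 24.3%). GemR siCont differed from Par in 5 of 9 in vehicle (3 higher, 2 lower, against 38.2%) and in 6 of 9 in thapsigargin (4 higher, 2 lower, against 48.2%). In GemR, siSTIM1 differed from siCont in 2 of 9 in vehicle (1 higher, 1 lower, against 42.0%) and in 4 of 9 in thapsigargin (1 higher, 3 lower, against 36.6%). With only 9 genes, these counts differed by about 2 genes at most from what the share of all genes would give. The thapsigargin response itself differed between GemR siCont and Par in 2 of 9 (both lower, against 14.8%), and between GemR siSTIM1 and GemR siCont in 1 of 9 (higher, against 4.41%). The median log2 fold change of the 9 members ranged from -0.17 to 0.32 over the 9 comparisons, and that of all tested genes from -0.03 to 0.01. Comparisons that use the same group share its libraries.

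**Figure D1:**
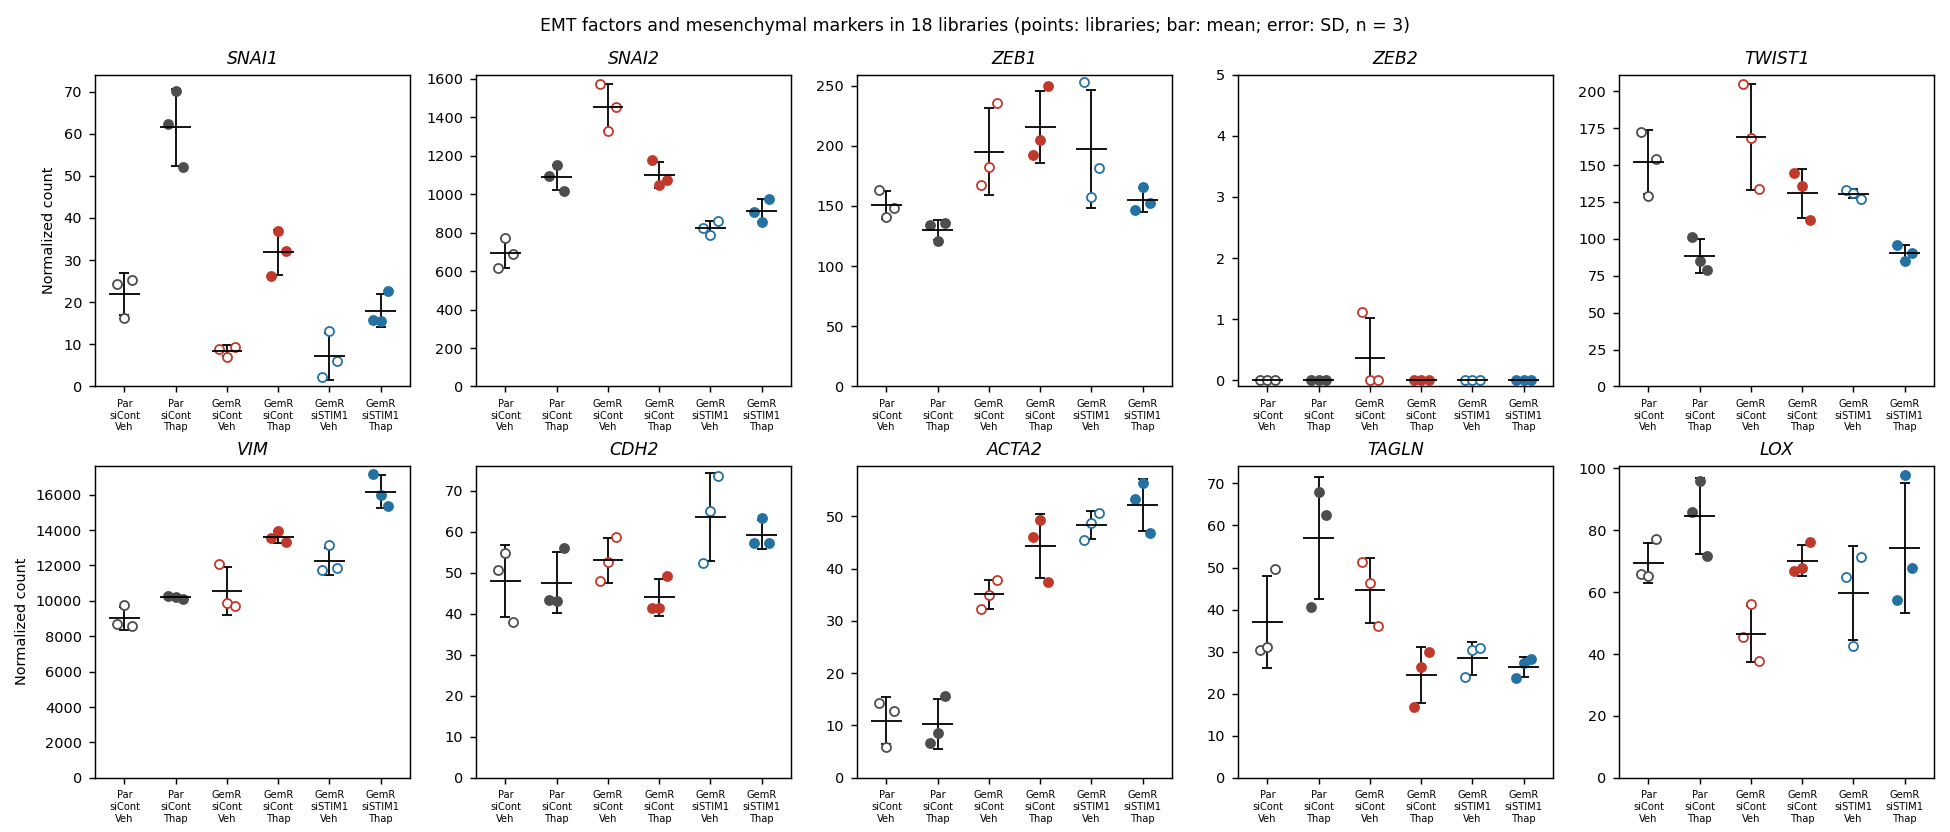
Normalized counts of the 10 genes (y axes, linear, 1 scale per gene) in the 6 groups (x axes). Points are libraries, and bars are means with standard deviations (n = 3). ACTA2 is between 5.94 and 15.6 in the Par libraries and at 32.3 or more in those of GemR, SNAI2 is highest in GemR siCont with vehicle, and ZEB2 is at or near 0 throughout.

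Per kilobase of exon, the mean abundance of the 9 tested members in Par with vehicle ran from 3.68 to 1747. In Par with vehicle, VIM had 1747 ± 128 normalized counts per kb of exon, SNAI2 had 205 ± 22.9 and TWIST1 had 74.7 ± 10.7. The remaining genes were much lower on that per-kb scale, with ZEB1 at 17.4 ± 1.32, SNAI1 at 13.1 ± 2.94, LOX at 12.5 ± 1.19, CDH2 at 9.68 ± 1.78, TAGLN at 9.48 ± 2.79 and ACTA2 at 3.68 ± 1.48. VIM and SNAI2 were thus the most abundant mesenchymal marker and the most abundant factor of the set in the parental line. Exon lengths were the union of a gene's GENCODE 29 exons, which need not be the isoforms these cells use.

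SNAI2, also called Slug, is a zinc finger repressor of epithelial genes on chromosome 8, minus strand. It was about 2-fold higher in GemR siCont than in Par in vehicle, and its response to thapsigargin ran in opposite directions in the 2 lines. In Par the 3 vehicle libraries had normalized counts of 618, 773 and 691, and the 3 thapsigargin libraries had 1094, 1151 and 1019. In GemR siCont the vehicle libraries had 1573, 1327 and 1456, and the thapsigargin libraries had 1179, 1047 and 1077. In GemR siSTIM1 the vehicle libraries had 826, 789.9 and 863, and the thapsigargin libraries had 910.3, 857 and 976. Every GemR siCont vehicle library was therefore above every other library of the series, and the ranges of the 2 thapsigargin groups with siCont overlapped.

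In vehicle, SNAI2 was higher in GemR siCont than in Par by 1.07 ± 0.09 on the log2 scale (2.09-fold, adjusted p = 1.4e-08). Thapsigargin raised it in Par by 0.65 ± 0.09 (1.57-fold, adjusted p = 6.4e-06) and lowered it in GemR siCont (log2 fold change -0.40 ± 0.09, adjusted p = 0.0014). The difference between these 2 responses was -1.05 ± 0.12 (adjusted p = 7.4e-06). After thapsigargin the lines differed by 0.02 ± 0.09 (adjusted p = 0.89), with a 95% interval of -0.17 to 0.20. With siSTIM1, SNAI2 in GemR fell by 0.81 on the log2 scale in vehicle (-0.81 ± 0.09, adjusted p = 8e-07), to a mean of 826 ± 36.6, which lay above the Par mean of 694 ± 77.6. In thapsigargin the siSTIM1 difference was -0.27 ± 0.09 (adjusted p = 0.021), and it was not called without GemR siCont thapsigargin replicate 1 (-0.22, adjusted p = 0.102) or without GemR siSTIM1 thapsigargin replicate 2 (-0.22, adjusted p = 0.0932). Within GemR siSTIM1 the thapsigargin response was 0.14 ± 0.09 (adjusted p = 0.26), and it differed from the response with siCont by 0.54 ± 0.12 (adjusted p = 0.015). The other SNAI2 calls held with each library left out and under each other alternative.

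**Figure D2:**
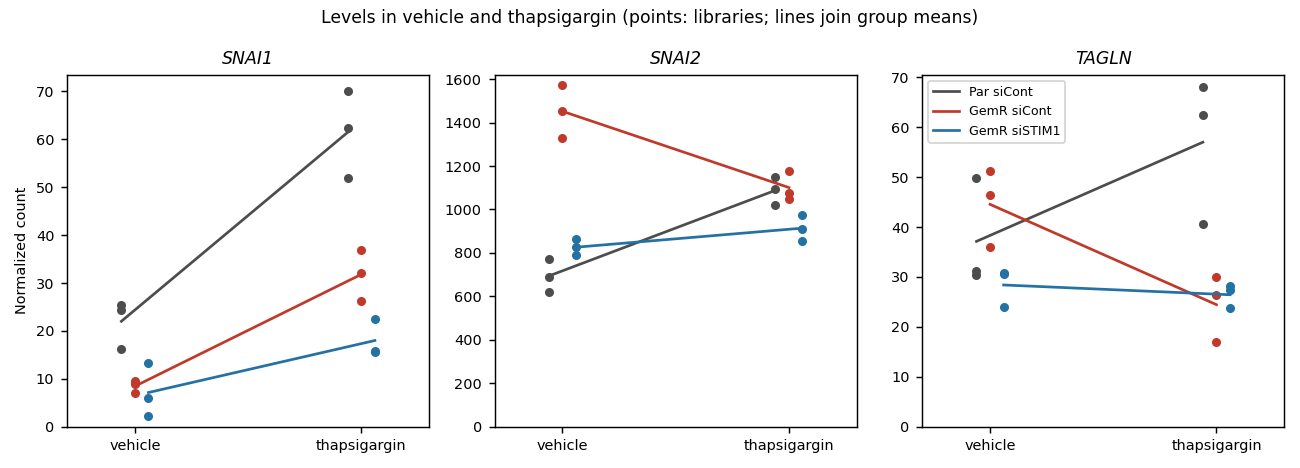
Normalized counts (y axes, linear) of SNAI1, SNAI2 and TAGLN in vehicle and thapsigargin (x axes). Points are libraries, and lines join the means of Par siCont, GemR siCont and GemR siSTIM1 (n = 3 each). In Par SNAI2 goes from 694 to 1088, and in GemR siCont it goes from 1452 to 1101, while SNAI1 is higher in thapsigargin in each of the 3 arms.

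SNAI1, or Snail, is the paralogous repressor of CDH1 and lies at chr20:49982999-49988886 on the plus strand (hg38, GENCODE 29, as for the positions below). It was low, with 2 to 66 reads per library, and it ran opposite to SNAI2 between the lines: GemR had less SNAI1 and more SNAI2 in vehicle. Thapsigargin raised it in each of the 3 arms. In Par the normalized counts were 24.4, 16.3 and 25.4 in vehicle and 62.3, 70.1 and 52.0 in thapsigargin. In GemR siCont they were 8.91, 7.01 and 9.47 in vehicle and 26.3, 37.0 and 32.1 in thapsigargin. In GemR siSTIM1 they were 2.28, 13.2 and 5.96 in vehicle and 15.8, 15.6 and 22.6 in thapsigargin. The thapsigargin libraries lay above the vehicle libraries of their own arm in all 3 arms, with the Par thapsigargin libraries the highest of all.

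Thapsigargin raised SNAI1 by 1.45 ± 0.37 in Par (adjusted p = 0.0042), by 1.79 ± 0.37 in GemR siCont (3.46-fold, adjusted p = 0.00093) and by 1.45 ± 0.37 in GemR siSTIM1 (adjusted p = 0.0068). The call in GemR siSTIM1 was lost in count tests on the recovered reads of 17 libraries, with edgeR (1.18, adjusted p = 0.0696) and with DESeq2 (1.18, adjusted p = 0.0613). These tests lack GemR siSTIM1 vehicle replicate 3, so the vehicle group of this arm has 2 libraries in them. The authors' deposited table for this comparison gave 1.31 (adjusted p = 0.0141). The response differed between GemR siCont and Par by 0.34 ± 0.53 (95% interval -0.77 to 1.44, adjusted p = 0.75), a range that includes both a smaller and a much larger response in GemR. SNAI1 was lower in GemR siCont than in Par in vehicle (log2 fold change -1.27 ± 0.37, adjusted p = 0.011). In thapsigargin that difference was -0.93 ± 0.37 (adjusted p = 0.046), and the call was lost without any 1 of the 6 libraries compared (adjusted p from 0.0584 to 0.14). The siSTIM1 differences were -0.45 ± 0.37 in vehicle (adjusted p = 0.34) and -0.79 ± 0.37 in thapsigargin (adjusted p = 0.11). The vehicle value was called only when GemR siSTIM1 vehicle replicate 2 was left out among single libraries (-0.98, adjusted p = 0.0255), the library with the highest SNAI1 of its group. In thapsigargin the siSTIM1 difference was called with edgeR (adjusted p = 0.0359) and DESeq2 (adjusted p = 0.0285), and also in a further alternative fit by limma (adjusted p = 0.0254).

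ZEB1, a zinc finger and homeodomain repressor, lies at chr10:31318495-31529814 on the plus strand, and 366 exonic bases are shared with the antisense gene ZEB1-AS1. The library kit is not one that marks strand, so reads of overlapping or antisense genes cannot be told apart there. ZEB1 had no called response to thapsigargin in any arm with all libraries. In GemR siSTIM1 the response was -0.32 ± 0.16 (adjusted p = 0.15), and it was called without GemR siSTIM1 vehicle replicate 2 (-0.47, adjusted p = 0.048). Its normalized counts were 163, 141 and 148 in Par vehicle and 134, 121 and 136 in Par thapsigargin. In GemR siCont they were 167, 182 and 236 in vehicle and 193, 205 and 249.6 in thapsigargin, and in GemR siSTIM1 they were 253, 158 and 182 in vehicle and 146, 166 and 152 in thapsigargin. The 3 GemR siCont thapsigargin libraries all exceeded the 3 of Par and the 3 of siSTIM1 under the same treatment.

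In thapsigargin ZEB1 was higher in GemR siCont than in Par by 0.72 ± 0.16 (1.64-fold, adjusted p = 0.00086). The vehicle difference was 0.35 ± 0.16 (adjusted p = 0.08). It was called without GemR siCont vehicle replicate 1 (adjusted p = 0.0293), the library that fell most with exon length, and without both length-trend libraries (0.46, adjusted p = 0.0197). With siSTIM1 ZEB1 was lower in thapsigargin (log2 fold change -0.47 ± 0.16, adjusted p = 0.023), a call lost without GemR siCont thapsigargin replicate 3 (-0.36, adjusted p = 0.12) and without siSTIM1 thapsigargin replicates 1 (adjusted p = 0.0661) or 3 (adjusted p = 0.0598). In vehicle the siSTIM1 difference was 0.00 ± 0.16 (95% interval -0.32 to 0.33, adjusted p = 0.99). ZEB1-AS1 rose with siSTIM1 in vehicle by 0.90 ± 0.23 (adjusted p = 0.0049) and in thapsigargin by 0.73 ± 0.23 (adjusted p = 0.02). The part of reads from this overlapping gene in the ZEB1 values was not tested.

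ZEB2, the second ZEB repressor (chr2:144364364-144524583, minus strand), was essentially unread. It had 1 read, a normalized count of 1.11, in GemR siCont vehicle replicate 1 and 0 reads in the other 17 libraries. The floor of 3 reads, the limit that a count of 0 allows, comes to a normalized count of 2.35 to 4.45 depending on the library. With a mean under 10 it was not tested, and no fold is given.

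TWIST1, a bHLH factor at chr7:19020991-19117672 on the minus strand, was lower after thapsigargin in Par and in GemR siSTIM1. Its normalized counts were 173, 129 and 154 in Par vehicle and 101, 85.3 and 79.0 in Par thapsigargin. In GemR siCont they were 205, 168 and 134 in vehicle and 145, 136 and 113 in thapsigargin, and in GemR siSTIM1 they were 133, 131 and 127 in vehicle and 95.9, 85.3 and 90.3 in thapsigargin. The treated and vehicle libraries separated in Par and in GemR siSTIM1 and overlapped in GemR siCont.

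The log2 fold change of TWIST1 with thapsigargin was -0.77 ± 0.15 in Par (adjusted p = 0.00044), -0.35 ± 0.15 in GemR siCont (adjusted p = 0.083) and -0.52 ± 0.15 in GemR siSTIM1 (adjusted p = 0.015). The GemR siCont value was called without GemR siCont vehicle replicate 3 (-0.51, adjusted p = 0.0139), and the siSTIM1 call was lost without siSTIM1 thapsigargin replicate 2 (adjusted p = 0.0526). The responses of GemR siCont and Par differed by 0.42 ± 0.21 (adjusted p = 0.22), so the missing call in GemR siCont does not show a smaller response. That difference was called when both libraries of the length trend were left out (0.57, adjusted p = 0.0382). After thapsigargin TWIST1 was higher in GemR siCont than in Par by 0.56 ± 0.15 (adjusted p = 0.005) and lower with siSTIM1 than with siCont (-0.52 ± 0.15, adjusted p = 0.011). The latter call was lost without GemR siCont thapsigargin replicate 1 (adjusted p = 0.0561). In vehicle the differences were 0.14 ± 0.15 between the lines (adjusted p = 0.5) and -0.35 ± 0.15 with siSTIM1 (adjusted p = 0.072), and the latter was called without GemR siCont vehicle replicate 3 (adjusted p = 0.0116). TWIST1 shares 141 exonic bases with an antisense gene, AC003986.2.

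**Figure D3:**
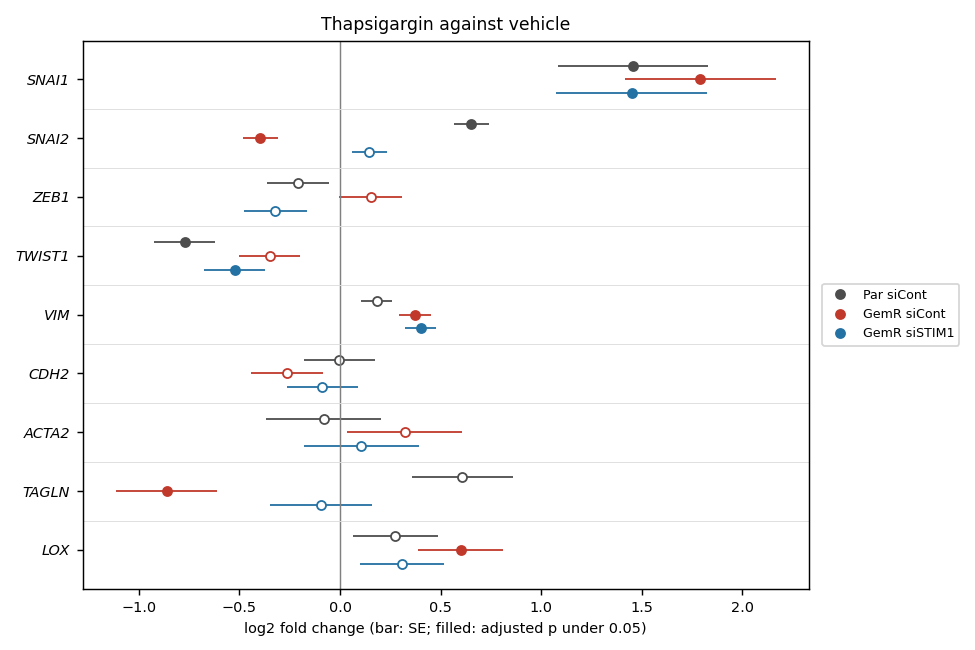
Log2 fold change of thapsigargin against vehicle (x axis) for the 9 tested members (y axis) in Par siCont, GemR siCont and GemR siSTIM1. Points are limma estimates with standard errors, filled where the adjusted p is under 0.05. SNAI1 is at 1.45 to 1.79 in the 3 arms, while SNAI2 and TAGLN have called values below 0 in GemR siCont and values above 0 in Par.

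Among the markers, VIM (chr10:17228259-17237593, plus strand) was by far the most abundant, and its changes were small in fold. In Par it had normalized counts of 8679, 9770.2 and 8585 in vehicle and 10299, 10238 and 10090.3 in thapsigargin. In GemR siCont it had 12096, 9898 and 9689 in vehicle and 13559.6, 13945 and 13308 in thapsigargin, and in GemR siSTIM1 it had 11752, 13130.1 and 11869 in vehicle and 17192, 15964 and 15379 in thapsigargin. The siSTIM1 thapsigargin libraries lay above all others, and within each arm the treated libraries lay above those in vehicle.

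Thapsigargin raised VIM by 0.37 ± 0.08 in GemR siCont (1.29-fold, adjusted p = 0.00092) and by 0.40 ± 0.08 in GemR siSTIM1 (1.32-fold, adjusted p = 0.00062). In Par the value was 0.18 ± 0.08 (adjusted p = 0.068), and it was called without Par vehicle replicate 2 (0.24, adjusted p = 0.0319) or without both length-trend libraries (0.18, adjusted p = 0.00249). The difference between the GemR siCont and Par responses was 0.19 ± 0.11 (adjusted p = 0.29). It was called without GemR siCont vehicle replicate 1 (0.29, adjusted p = 0.0149), which had the highest VIM of its group, and without both length-trend libraries (0.29, adjusted p = 0.0034). VIM was higher in GemR siCont than in Par by 0.41 ± 0.08 in thapsigargin (1.33-fold, adjusted p = 0.00022) and by 0.22 ± 0.08 in vehicle (adjusted p = 0.028). The vehicle call was lost without that same library (0.12, adjusted p = 0.133), without both length-trend libraries (0.12, adjusted p = 0.0721) and without Par vehicle replicate 1 (adjusted p = 0.0956) or 3 (adjusted p = 0.113). VIM was higher with siSTIM1 by 0.22 ± 0.08 in vehicle (adjusted p = 0.029) and 0.25 ± 0.08 in thapsigargin (adjusted p = 0.017). The former call was lost without GemR siCont vehicle replicate 2 (adjusted p = 0.109) or 3 (adjusted p = 0.114) or siSTIM1 vehicle replicate 2 (adjusted p = 0.128). The latter was lost without siCont thapsigargin replicate 3 (adjusted p = 0.057) or siSTIM1 thapsigargin replicate 1 (adjusted p = 0.0679). VIM shares 641 exonic bases with the antisense gene VIM-AS1, whose highest group mean was 29 and its lowest 13.9, far below the VIM level. The part of VIM-AS1 reads in the VIM values was not tested.

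CDH2, encoding N-cadherin, on chromosome 18, minus strand, was called in none of the 9 comparisons by limma. The 18 libraries ranged from 38.0 to 73.5, and the group means ran from 44.0 ± 4.56 in GemR siCont with thapsigargin to 63.6 ± 10.6 in GemR siSTIM1 with vehicle, each group overlapping its neighbour in that order. Its unadjusted interval excluded 0 in 1 comparison, siSTIM1 against siCont in thapsigargin, at 0.43 ± 0.18 (95% interval 0.05 to 0.80, adjusted p = 0.068), and edgeR called that difference (0.44, adjusted p = 0.0495). GemR siCont and Par differed by 0.16 ± 0.18 in vehicle (95% interval -0.21 to 0.53, adjusted p = 0.52).

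ACTA2, at chr10:88935074-88991339 on the minus strand, showed the largest estimated log2 difference between the lines of any tested member. Its normalized counts in Par were 14.2, 5.94 and 12.7 in vehicle and 6.61, 8.63 and 15.6 in thapsigargin. In GemR siCont they were 32.3, 35.0 and 37.9 in vehicle and 46.1, 49.3 and 37.5 in thapsigargin, and in GemR siSTIM1 they were 45.5, 48.8 and 50.6 in vehicle and 53.4, 56.3 and 46.7 in thapsigargin. All 12 GemR libraries were above all 6 Par libraries. ACTA2 was higher in GemR siCont by 1.67 ± 0.29 in vehicle (3.18-fold, adjusted p = 0.00013) and by 2.08 ± 0.29 in thapsigargin (4.22-fold, adjusted p = 7.6e-06), and these calls held in every alternative run, except that ACTA2 was not tested at a minimum mean of 50. The thapsigargin responses, none of them called, were -0.08 ± 0.29 for Par, 0.32 ± 0.29 for GemR siCont and 0.10 ± 0.29 for GemR siSTIM1 (adjusted p = 0.84, 0.41 and 0.84). With siSTIM1 the values were 0.45 ± 0.29 in vehicle (adjusted p = 0.21) and 0.24 ± 0.29 in thapsigargin (adjusted p = 0.56).

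ACTA2 shares 380 exonic bases with FAS and 516 with ACTA2-AS1. FAS, which encodes a death receptor, did not pass the test between GemR siCont and Par in vehicle (-0.09 ± 0.11, adjusted p = 0.57) or thapsigargin (0.22 ± 0.11, adjusted p = 0.098), and ACTA2-AS1 had group means of 0.269 to 2.08. The fibroblast markers listed above, for cells in which ACTA2 is known to be abundant, were lower in sum in GemR than in Par, but each had a mean under 10. The part of overlapping genes or of other cells in the ACTA2 values was not tested.

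TAGLN, at chr11:117199321-117204782 on the plus strand, is like ACTA2 a target of SRF, but its values across the groups were unlike those of ACTA2. In Par it had 30.5, 31.2 and 49.7 in vehicle and 40.6, 68.0 and 62.4 in thapsigargin, as normalized counts. In GemR siCont it had 51.2, 46.4 and 36.0 in vehicle and 16.9, 26.4 and 30.0 in thapsigargin, and in GemR siSTIM1 it had 23.9, 30.5 and 30.8 in vehicle and 23.7, 27.4 and 28.2 in thapsigargin. The vehicle and thapsigargin libraries separated by range in GemR siCont, with the treated ones lower, and they overlapped in the other 2 arms.

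Thapsigargin lowered TAGLN in GemR siCont (-0.86 ± 0.25, adjusted p = 0.012), a call lost without GemR siCont thapsigargin replicate 1, the lowest library (-0.63, adjusted p = 0.0844). In Par the value was 0.61 ± 0.25 (adjusted p = 0.062). It was called without Par vehicle replicate 3 (0.83, adjusted p = 0.0207) or Par thapsigargin replicate 1 (0.83, adjusted p = 0.023), and without both length-trend libraries (0.61, adjusted p = 0.0463). The 2 responses differed by -1.47 ± 0.36 (adjusted p = 0.0077), from -1.70 to -1.24 with each library left out. In thapsigargin TAGLN was lower in GemR siCont than in Par (-1.19 ± 0.25, or 2.29-fold lower, adjusted p = 0.00069), while in vehicle the difference was 0.28 ± 0.25 (adjusted p = 0.41). With siSTIM1 it was -0.63 ± 0.25 in vehicle (adjusted p = 0.054), called without GemR siCont vehicle replicate 3 (adjusted p = 0.0311), and 0.14 ± 0.25 in thapsigargin (adjusted p = 0.7). The siSTIM1 and siCont responses differed by 0.77 ± 0.36 (adjusted p = 0.23). PCSK7, a convertase gene that overlaps TAGLN by 446 exonic bases, was more abundant, with group means of 628 to 717, and it was called in none of the 9 comparisons. The part of PCSK7 reads in the TAGLN values was not tested.

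LOX (chr5:122063195-122078360, minus strand) changed little and unsteadily. It had 66.0, 65.3 and 77.0 in Par vehicle, 85.9, 96.0 and 71.7 in Par thapsigargin, 45.7, 56.0 and 37.9 in GemR siCont vehicle and 66.7, 67.8 and 76.1 in GemR siCont thapsigargin. In GemR siSTIM1 it had 64.9, 42.7 and 71.5 in vehicle and 57.3, 97.8 and 67.7 in thapsigargin, the widest spread of its groups. The GemR siCont vehicle libraries lay below those of Par vehicle and of GemR siCont thapsigargin.

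LOX was lower in GemR siCont than in Par in vehicle (-0.58 ± 0.21, adjusted p = 0.036) and was raised by thapsigargin in GemR siCont (0.60 ± 0.21, adjusted p = 0.035). Each of these calls was lost without any of 5 of the 6 libraries compared (adjusted p from 0.0554 to 0.129 and from 0.0566 to 0.118). Leaving out GemR siCont vehicle replicate 2 alone kept the first, as it kept the second. For the second comparison the authors' deposited table, by DESeq2, gave 0.59 (adjusted p = 0.0518). In vehicle the siSTIM1 difference was 0.34 ± 0.21 (adjusted p = 0.21), called without siSTIM1 vehicle replicate 2 (adjusted p = 0.0455). SRFBP1, which shares 138 exonic bases with LOX, moved the other way between the lines in vehicle (0.60 ± 0.10, adjusted p = 9.5e-05) and with thapsigargin in GemR siCont (-0.36 ± 0.10, adjusted p = 0.0083). The part of SRFBP1 reads in the LOX values was not tested.

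**Figure D4:**
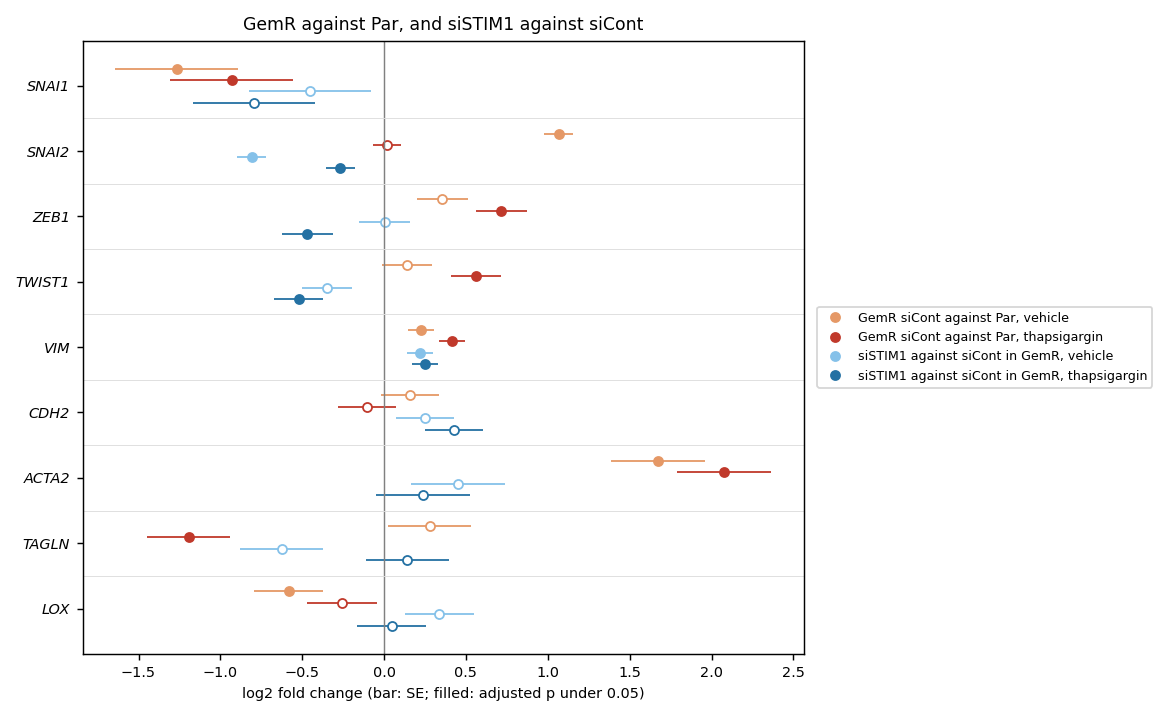
Log2 fold changes (x axis) of the 9 tested members (y axis) for GemR siCont against Par and for siSTIM1 against siCont in GemR, each in vehicle and thapsigargin. Points are limma estimates with standard errors, filled where the adjusted p is under 0.05. ACTA2 is at 1.67 and 2.08 between the lines, and SNAI2 is at 1.07 in vehicle and 0.02 in thapsigargin.

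For the 4 members whose group means spanned at least 1 on the log2 scale, the 3 tested genes with the most similar pattern were taken by the root mean square difference of centred log2 values over the 18 libraries. For SNAI1 they were GRHL1 (0.44), ARID3B (0.45) and ATP6V1C2 (0.49). For SNAI2 they were STK17A (0.18), EHD1 (0.19) and ACSS3 (0.19), and for ACTA2 they were SPP1 (0.31), ST5 (0.31) and SMPD1 (0.32). For TAGLN they were ETV6 (0.31), LIAS (0.32) and C12orf4 (0.32). The measure is a description over libraries that share depth and processing, and the nearest gene of SNAI1 was at a larger distance than those of the other 3 members.

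The genes that EMT factors are known to oppose, here 12 epithelial gatekeepers of which 10 were tested, rose with thapsigargin more often than they fell. In Par 6 rose and 1 fell, in GemR siCont 8 rose and 1 fell, and in GemR siSTIM1 5 rose and 1 fell. Of all tested genes 40.1%, 33.6% and 24.3% were called in these arms. The median log2 fold changes of the gatekeepers were 1.07, 1.65 and 0.33, against medians of all tested genes within -0.03 to 0.01. CDH1, the E-cadherin gene and a known target of SNAI1 repression, rose by 1.39 ± 0.14 in Par (adjusted p = 1.7e-07), from a mean of 205 ± 50.5 to 534 ± 93.3. In GemR siCont it rose by 2.34 ± 0.14 (adjusted p = 9.5e-11), from 83.9 ± 4.42 to 431 ± 40.0, and in GemR siSTIM1 by 0.83 ± 0.14 (adjusted p = 0.00015), from 254 ± 4.07 to 454 ± 40.3. SNAI1 and CDH1 were thus both higher after thapsigargin in each arm at 3 h. KLF4, an epithelial zinc finger factor, rose by 1.49 ± 0.11, 3.18 ± 0.11 and 2.12 ± 0.11 in the same order (adjusted p = 2.7e-09, 3.4e-14 and 3e-11). GRHL1, a grainyhead factor of epithelia, rose by 1.23 ± 0.13, 2.17 ± 0.13 and 1.37 ± 0.13 (adjusted p = 4.1e-07, 1.2e-10 and 1.5e-07). The gatekeeper that fell in all 3 arms was ESRP2, an epithelial splicing regulator, with -0.98 ± 0.11, -0.44 ± 0.11 and -0.61 ± 0.11 (adjusted p = 4.7e-07, 0.0036 and 0.00024).

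**Figure D5:**
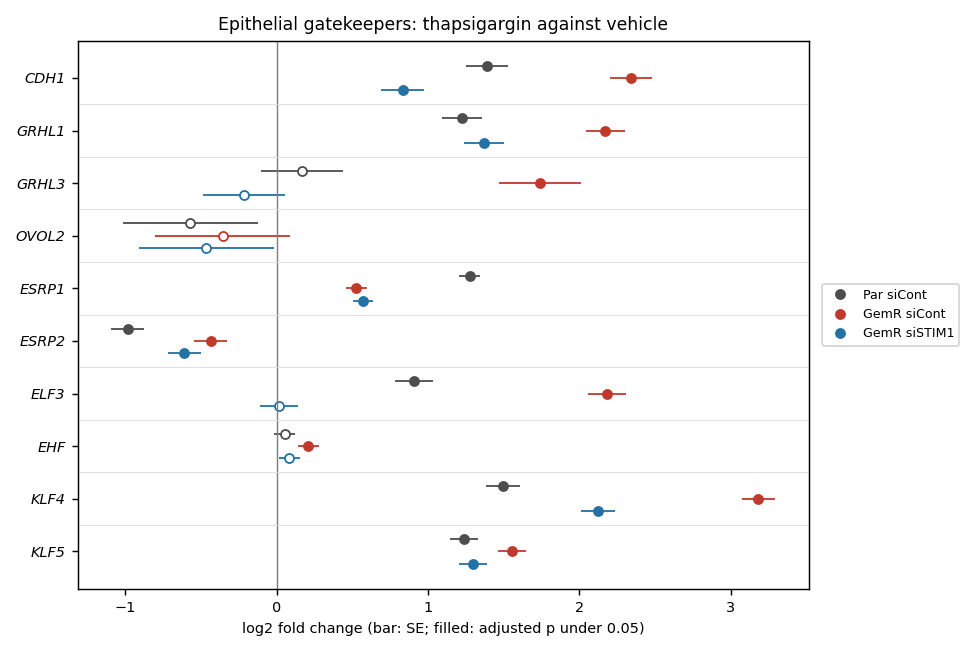
Log2 fold change of thapsigargin against vehicle (x axis) for the 10 tested epithelial gatekeeper genes (y axis) in Par siCont, GemR siCont and GemR siSTIM1. Points are limma estimates with standard errors, filled where the adjusted p is under 0.05. CDH1, GRHL1, ELF3 and KLF4 lie farther to the right in GemR siCont than in the other 2 arms, and ESRP2 lies below 0 in all 3.

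In vehicle, 9 of the 10 gatekeepers were lower in GemR siCont than in Par and none was higher, where 38.2% of all tested genes were called. This was alongside the higher SNAI2, ACTA2 and VIM and the lower SNAI1 and LOX. CDH1 differed by -1.25 ± 0.14 (adjusted p = 9.2e-07), GRHL1 by -1.61 ± 0.13 (adjusted p = 1.5e-08) and GRHL3 by -1.68 ± 0.27 (adjusted p = 6.7e-05). In thapsigargin 2 were higher and 4 lower, where 48.2% of all tested genes were called. The difference of responses, GemR siCont minus Par, was above 0 for 6 and below 0 for 1, ESRP1 (-0.75 ± 0.09, adjusted p = 1.7e-05), against 14.8% of all genes called. With siSTIM1 3 were higher and 3 lower in vehicle (against 42.0% of all genes). In thapsigargin 2 were higher and 6 lower with siSTIM1 (median log2 fold change -0.49, against 36.6% of all genes called). In vehicle CDH1 was higher with siSTIM1 by 1.59 ± 0.14 (adjusted p = 6.7e-08) where SNAI2 was lower, and in thapsigargin its difference was 0.08 ± 0.14 (adjusted p = 0.71). The difference of responses, siSTIM1 minus siCont, was below 0 for 5 gatekeepers and above 0 for none by the test, for example -1.51 ± 0.20 for CDH1 (adjusted p = 0.00011) and -2.16 ± 0.18 for the epithelial ETS factor ELF3 (adjusted p = 6.7e-07). For this difference 4.41% of all tested genes were called.

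Of the TGF-beta pathway list (ligands, receptors, SMADs and targets), 13 of 14 genes were tested. Thapsigargin raised 4 and lowered 1 in Par, raised 5 and lowered 1 in GemR siCont, and raised 1 and lowered 3 in GemR siSTIM1. Of all tested genes 40.1%, 33.6% and 24.3% were called in these arms, so nothing particular to the list is read from its counts. The ligand TGFB2 followed the SNAI2 pattern in Par and GemR siCont only in part: it rose in Par by 0.78 ± 0.14 (adjusted p = 0.00015), was not called in GemR siCont (-0.23 ± 0.14, adjusted p = 0.21), and its responses differed by -1.01 ± 0.19 (adjusted p = 0.0012). In vehicle 1 gene was higher and 5 were lower in GemR siCont than in Par. The higher one was the inhibitor SMAD7 (0.86 ± 0.23, adjusted p = 0.006). With siSTIM1 in vehicle 5 were higher and 1 lower, and in thapsigargin 3 were higher and 5 lower. Of all tested genes 38.2% were called between the lines in vehicle, and 42.0% and 36.6% with siSTIM1 in vehicle and thapsigargin.

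The SRF and contractile list gave 15 tested genes of 18 names, and those called between the lines went both ways. Between GemR siCont and Par 4 were higher and 3 lower in vehicle, and 4 higher and 2 lower in thapsigargin, with medians of 0.08 and -0.17. Of all tested genes 38.2% and 48.2% were called there, so nothing particular to the list is read from its counts. TGFB1I1, a focal adhesion gene, was higher by 1.18 ± 0.09 in vehicle (adjusted p = 1e-08), while CNN3, a calponin, was lower by 1.38 on the log2 scale (-1.38 ± 0.13, adjusted p = 1.3e-07). CALD1, encoding caldesmon, had the same signs as SNAI2: it was higher in GemR siCont in vehicle (1.27 ± 0.15, adjusted p = 2.4e-06), rose with thapsigargin in Par (0.68 ± 0.15, adjusted p = 0.0015) and fell in GemR siCont (-0.88 ± 0.15, adjusted p = 0.00016). Its responses differed by -1.56 ± 0.22 (adjusted p = 5e-05). Thapsigargin raised 4 and lowered 3 of the list in Par, raised 2 and lowered 4 in GemR siCont, and raised 3 and lowered 3 in GemR siSTIM1. In these arms 40.1%, 33.6% and 24.3% of all tested genes were called. The smooth muscle genes CNN1 and MYL9 were near 0, with group means of at most 0.901 and 0.331.

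Among the relatives of LOX and its activator BMP1, 4 of 5 were tested. LOXL1 was lower in GemR siCont than in Par in vehicle (-1.49 ± 0.17, adjusted p = 1.1e-06), as LOX was, and LOXL2 was higher (0.86 ± 0.08, adjusted p = 9.6e-08). With siSTIM1 3 of the 4 were higher in vehicle and 3 in thapsigargin, where 42.0% and 36.6% of all tested genes were called. They included LOXL1 by 1.39 ± 0.17 (adjusted p = 4.1e-06) and LOXL2 by 0.62 ± 0.08 (adjusted p = 9e-06) in vehicle. With thapsigargin in GemR siCont, LOXL2 rose (0.29 ± 0.08, adjusted p = 0.009) and LOXL3 fell (-0.64 ± 0.20, adjusted p = 0.019). None of the 4 was called in Par or GemR siSTIM1 (against 40.1% and 24.3% of all genes). None was called in either difference of responses (against 14.8% and 4.41%).

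Of 12 other mesenchymal markers, 8 were tested, and they divided between the lines: 3 were higher and 4 lower in GemR siCont than in Par in vehicle. Of all tested genes 38.2% were called there. NT5E (CD73, an ectonucleotidase) was higher by 1.62 ± 0.08 (adjusted p = 8.1e-12) and the receptor kinase AXL by 1.00 ± 0.08 (adjusted p = 5.2e-09). The fibrillar collagen genes COL3A1 (-5.39 ± 0.12, adjusted p = 6.5e-17) and COL1A2 (-2.55 ± 0.57, adjusted p = 0.0016) were lower. COL3A1 had a mean of 7349 ± 287 in Par and 174 ± 9.53 in GemR siCont with vehicle. With siSTIM1, 3 of the 8 were higher and 3 lower in vehicle, and 3 were higher and 1 lower in thapsigargin. The share of all tested genes called there was 42.0% and 36.6%. FN1, the fibronectin gene, was higher with siSTIM1 by 2.38 ± 0.18 in vehicle (adjusted p = 9e-09) and by 1.69 ± 0.18 in thapsigargin (adjusted p = 6.2e-07). In that arm VIM was also higher and SNAI2 lower. Thapsigargin lowered none of the 8 and raised 3 in Par, 3 in GemR siCont and 2 with siSTIM1, against 40.1%, 33.6% and 24.3% of all genes called. NT5E rose by 0.92 ± 0.08, 1.29 ± 0.08 and 0.91 ± 0.08 in that order (adjusted p = 2.1e-08, 1.7e-10 and 3.9e-08).

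Of 10 further EMT transcription factors, 6 were tested. Between GemR siCont and Par 1 was higher and 1 lower in vehicle (median log2 fold change -0.18), and 3 were higher and 1 lower in thapsigargin. With siSTIM1 1 was higher and 2 lower in vehicle, and 0 were higher and 3 lower in thapsigargin. The share of all tested genes called, in vehicle and thapsigargin, was 38.2% and 48.2% between the lines and 42.0% and 36.6% with siSTIM1. Thapsigargin raised 1 and lowered 2 of the 6 in Par, raised 1 and lowered 0 in GemR siCont, and changed 0 in GemR siSTIM1. All tested genes were called at 40.1%, 33.6% and 24.3% in these arms. The difference of responses was called for 3 (all higher, against 14.8%) between GemR siCont and Par. Between siSTIM1 and siCont it was called for 1 (lower, against 4.41%). FOXC1, a forkhead factor, rose with thapsigargin in GemR siCont by 1.15 ± 0.15 (adjusted p = 5.2e-06), and this response was larger than in Par by 1.18 ± 0.21 (adjusted p = 0.00065). With siSTIM1 the FOXC1 response was smaller than with siCont (-1.18 ± 0.21, adjusted p = 0.0024). The chromatin protein gene HMGA2 was higher in GemR siCont than in Par by 0.56 ± 0.06 in vehicle (adjusted p = 1.3e-06) and 0.85 ± 0.06 in thapsigargin (adjusted p = 3.1e-09). Of 8 cadherins other than CDH2, 5 were tested. Between GemR siCont and Par 2 were higher and 2 lower in vehicle, and with siSTIM1 2 were higher and 1 lower in vehicle, against 38.2% and 42.0% of all genes. CDH3 (P-cadherin) was higher in GemR siCont by 0.48 ± 0.07 in vehicle (adjusted p = 2.1e-05) and with siSTIM1 by 0.71 ± 0.07 (adjusted p = 3.2e-07). CDH3 had a mean of 809 ± 69.1 in Par with vehicle.

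The authors' deposited table of thapsigargin against vehicle in GemR siCont gave log2 fold changes of 1.92 for SNAI1, -0.40 for SNAI2 and -0.87 for TAGLN. For the same treatment in Par, the authors' deposited table gave 1.45 for SNAI1 and 0.65 for SNAI2. A further comparison, GemR siCont with thapsigargin against Par with vehicle, changes the line and the treatment at once, and for it the authors' deposited table gave 1.96 for ACTA2, 0.67 for SNAI2 and -0.22 for TWIST1.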

How the data were processed

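Messenger RNA was measured in 18 libraries, 3 per group, made from 500 ng of RNA by the TruSeq v2 kit, per the labels' protocols. Per the submitters' processing notes STAR 2.6.0c, HTSeq 0.11.1, DESeq2 and the hg38 genome were used. Which gene annotation the authors counted on is not given in the sources used here. Normalized counts, as deposited, were used as a signal. They are reads over a library size factor, because every positive value was a whole multiple of its library's step (within 0.01). Tables of 5 comparisons by the authors hold log2 fold changes, a test score and p-values, per the file headers.

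From these values log2(normalized count + 1) was fitted in R 4.3.3 by limma 3.58.1 with a trend and 1 mean per group, which left 12 residual degrees of freedom, over genes with a mean of at least 10. Two-sided tests of 9 comparisons, 2 of them differences between responses, were adjusted by Benjamini and Hochberg over all 13096 genes. Count tests with edgeR 4.0.16 (quasi-likelihood) and DESeq2 1.42.0 used the whole reads recovered for 17 libraries, because 1 step lay too near 1 to be checked. Other alternatives were no filter or a minimum mean of 50, pseudocounts of 0.5 and 5, quantile-normalized or median-centred values, a block on the replicate number, a fit of the compared groups alone, each library left out in turn, and both length-trend libraries left out. The members, the 11 gene lists and the alternatives were chosen with earlier results of these data known. Named genes were the members, STIM1, up to 4 called genes of each list with the largest change, and the 3 genes nearest to each member spanning at least 1 on the log2 scale. Not all of these, and a few list genes outside the rule, are named. Neighbours overlapping a member, genes at or near 0, ESRP2 and TGFB2 were added after their values were seen. Positions, overlaps and lengths came from GENCODE 29, where 23798 symbols matched 1 gene. The fit was tested on simulated data. Figures were drawn with Python 3.11.15 and matplotlib 3.10.9.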

Additional observations from a re-analysis of the deposited data

Results flagged for a closer look

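The 3 values below stood out because the response to thapsigargin differed between arms by a test of the difference itself. The SNAI2 response differed between GemR siCont and Par by -1.05 ± 0.12 on the log2 scale (limma, adjusted p = 7.4e-06), with a rise in Par and a fall in GemR siCont, and the treated and vehicle libraries did not overlap in either line. The TAGLN response differed between the same arms by -1.47 ± 0.36 (adjusted p = 0.0077), although the vehicle and treated libraries of Par overlapped. The SNAI2 response differed between GemR siSTIM1 and GemR siCont by 0.54 ± 0.12 (adjusted p = 0.015). The first and the third of these share the GemR siCont libraries. Without the 2 libraries of the length trend the values were -0.99 (adjusted p = 1.1e-07), -1.36 (adjusted p = 0.0078) and 0.48 (adjusted p = 0.011).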

How the results depend on the processing

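Of the 81 member values, the count that kept direction and side of the threshold was 80 with either pseudocount, 79 with median-centred values, 77 with DESeq2 and with the replicate block, 76 with edgeR and without a filter, 75 with only the libraries compared, and 72 with quantile-normalized values and with the 2 length-trend libraries left out. At a minimum mean of 50 all 54 testable values did. Of 594 values with 1 library left out, 530 did, 32 lost a call, 11 gained one and 21 changed sign. No value that changed sign was called. SNAI1, ACTA2 and TAGLN rest on few reads, which limits the precision of their values. TAGLN had 18 reads in GemR siCont thapsigargin replicate 1. All scaling alternatives moved the median of all genes by less than 0.1 on the log2 scale.

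The number of members called moved as follows. For thapsigargin in Par it was 3, and 5 with only the libraries compared and with the 2 length-trend libraries left out. For thapsigargin in GemR siCont it was 5, and 3 at a minimum mean of 50, where 6 members are tested. For GemR siCont against Par in vehicle it was 5, and 3 without a filter, at a minimum mean of 50 and with only the libraries compared. In thapsigargin it was 6, and 3 at a minimum mean of 50. For siSTIM1 against siCont in vehicle it was 2, and 1 without a filter, with median-centred values, with only the libraries compared and with edgeR, and 4 with quantile-normalized values. For the difference of responses between GemR siCont and Par it was 2, and 1 at a minimum mean of 50 and 4 with the 2 length-trend libraries left out. At the minimum mean of 50 fewer members are tested. Both length-trend libraries are from GemR, so leaving them out left the Par estimates as they were (0.18 for VIM and 0.61 for TAGLN). What changed there was the spread estimated over all groups, and with it the adjusted p. In the other settings the cause was not tested. With each library left out the counts ranged from 3 to 4 (thapsigargin in Par), 3 to 5 (GemR siCont), 2 to 4 (GemR siSTIM1), 3 to 5 (lines, vehicle), 5 to 5 (lines, thapsigargin), 1 to 3 (siSTIM1, vehicle), 2 to 4 (siSTIM1, thapsigargin), 2 to 3 (responses, GemR siCont minus Par) and 1 to 1 (responses, siSTIM1 minus siCont).

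Same-numbered libraries had correlations of -0.177 to 0.491 over 45 pairs, median 0.021, and 8 of 18 libraries were closest to their own number. Differently numbered libraries had -0.459 to 0.301 over 90 pairs, median -0.007. As these ranges overlap, the correlations cannot decide whether the numbers pair the samples, and the main fit used no pairing. The replicate block raised the members called for siSTIM1 in vehicle from 2 to 4, and changed no other count by over 1.5 times. The block gained 4 calls and lost none: TWIST1 (adjusted p = 0.0351) and TAGLN (adjusted p = 0.0369) for siSTIM1 in vehicle, TWIST1 for thapsigargin in GemR siCont (adjusted p = 0.0409) and TAGLN for thapsigargin in Par (adjusted p = 0.0434).

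Values that changed sign, none called, were these on the log2 scale. For CDH2 with thapsigargin they were 0.0076 in Par with DESeq2, and in GemR siSTIM1 0.029 with edgeR and 0.011 with DESeq2. TWIST1 between the lines in vehicle was -0.0099 with the 2 length-trend libraries left out. ZEB1 with siSTIM1 in vehicle was -0.011 median-centred, -0.060 quantile-normalized and -0.099 with those 2 libraries out. LOX with siSTIM1 in thapsigargin was -0.060 quantile-normalized. VIM in the difference of the siSTIM1 and siCont responses was -0.084 quantile-normalized and -0.12 with those 2 libraries out. With 1 library left out, thapsigargin in Par gave -0.158 to 0.101 for CDH2 and -0.434 to 0.162 for ACTA2, and thapsigargin in GemR siSTIM1 gave -0.220 to 0.021 for CDH2. The lines in vehicle gave -0.010 to 0.297 for TWIST1, and in thapsigargin -0.033 to 0.059 for SNAI2 and -0.186 to 0.018 for CDH2. For siSTIM1, vehicle gave -0.977 to 0.081 for SNAI1 and -0.188 to 0.151 for ZEB1, and thapsigargin gave -0.091 to 0.304 for TAGLN and -0.168 to 0.213 for LOX. The difference of the siSTIM1 and siCont responses gave -0.876 to 0.183 for SNAI1 and -0.073 to 0.088 for VIM.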
